A study of Rattus norvegicus with 12 samples.

Results

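The jejunum of homozygous (b/b) Belgrade rats was compared with that of heterozygous (+/b) Belgrade rats. The members of this comparison were the 6 arrays titled as jejunum, 3 per genotype, out of 12 arrays in the series. All rats carried at least 1 b allele, the recessive mutant form of Slc11a2, which encodes the iron transporter DMT1 (divalent metal transporter), so the comparison group held no wild-type animals. RNA came from scrapes of the jejunum, a mixture of epithelium with underlying cells and blood. Each genotype was represented by 3 groups of rats, and material of each group went onto 1 array per tissue. Replicates are thus groups of animals, and the spread between single rats was not measured. The labels give no age, sex or diet. The other 6 arrays, from the duodenum of the same groups of rats, entered the fit as a shared estimate of the spread.

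DMT1 carries ferrous iron across the brush border of the enterocyte after surface reductases such as Cybrd1 have reduced dietary ferric iron, and it also moves iron out of endosomes in developing red cells. Iron leaves the enterocyte through ferroportin (Slc40a1) with the help of the oxidase hephaestin (Heph). Homozygous Belgrade rats are known to be iron deficient and anaemic with many circulating reticulocytes, the young red cells that still hold RNA. Most dietary iron is taken up in the duodenum, and the jejunum lies downstream of it.

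Signals are given on the deposited linear scale after each array was brought to a 2% trimmed mean of 500, and replicates are always named in the order 1, 2 and 3. Differences are b/b minus +/b on the log2(signal + 16) scale, followed by the limma fit's standard error (SE), n = 3 arrays per group, and adjusted p-values are Benjamini-Hochberg values over 17694 probe sets. Rank correlations between jejunum arrays lay between 0.881 and 0.945, and b/b replicate 1 correlated least with the others (0.881 to 0.893). Among all 12 arrays, b/b duodenum replicate 1 had the lowest median rank correlation with the others (0.836) and the highest median signal (181). It enters the spread behind each SE. Markers of enterocytes, goblet cells, enteroendocrine cells and T cells overlapped between the genotypes, and none of the markers on the array was at 0. The brightest signal of an array, from the fatty acid binding protein Fabp1, was 85087, 57423 and 32318 in +/b and 95180, 52551 and 30742 in b/b rats, so it followed the replicate number and not the genotype. Same-numbered arrays of both genotypes deviated together, and a fit with the replicate number as a block is given where it changes a call.

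Few probe sets passed the test in the fit without the block: 6 of 17694 (0.0339%) were higher in b/b rats at an adjusted p under 0.05, and 0 were lower. They measure the lipoxygenase Alox15, the globin gene Hbb, the erythroid heme enzyme Alas2, and 3 probe sets annotated to several genes each, which are not named here. At an unadjusted p under 0.05, 111 probe sets were higher (0.627%) and 126 lower (0.712%), 1.34% together. That is less than the share of 0.05 that evenly spread p-values would give. With the replicate block the share was 7.82%, so the small number of calls depends on the fit. The groups of 3 arrays did not overlap for 593 probe sets on the higher side (3.35%) and 804 on the lower side (4.54%).

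**Figure D1:**
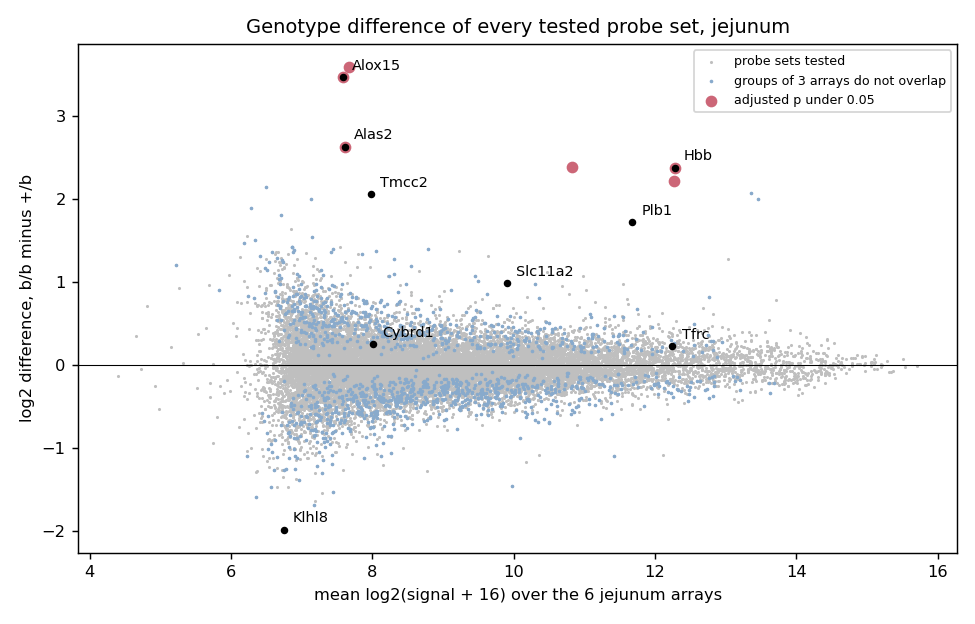
Mean log2(signal + 16) over the 6 jejunum arrays against the log2 difference between b/b and +/b rats for each of 17694 tested probe sets. The 6 probe sets past the threshold all lie above 0, with differences between 2.22 and 3.58, and the named iron genes Slc11a2, Cybrd1 and Tfrc lie among the unmarked ones.

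Alox15, a lipoxygenase that oxygenates polyunsaturated fatty acids, had the lowest p-value. Its signals were 66.2, 18.8 and 51.3 in +/b and 689, 547 and 628 in b/b rats. The +/b signals were dim and the b/b signals moderate, with a gap between the groups. The mean signal rose 13.7-fold, from 45.4 ± 24.3 to 621 ± 70.9 (SD), and the log2 difference was 3.46 ± 0.36 SE (limma adjusted p = 0.00236; 6.6e-04 with the replicate block). The size of this ratio depends on how well the dim +/b signals were measured. Leaving out each array in turn gave differences of 3.09 to 3.71, and the highest adjusted p among these fits was 0.0299. With b/b replicate 1 as the only b/b jejunum array the difference was 3.61, and Alox15 was no longer called.

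Among 18 tested lipoxygenase and eicosanoid genes Alox15 was the only call, against 3 calls among all 10067 tested genes. The median of the list was -0.07 against -0.04 over all tested genes. Ptges3, a prostaglandin E synthase and cochaperone, was at 7751, 6810 and 8075 in +/b and at 5980, 5863 and 6684 in b/b rats without overlap (log2 difference -0.29 ± 0.20, not called). Hpgd, which breaks down prostaglandins, had a difference of 0.40 ± 0.28, and leukotriene A4 hydrolase (Lta4h) of -0.20 ± 0.19. Cells that are known to express 15-lipoxygenases include eosinophils, macrophages and reticulocytes. The 4 eosinophil markers on the array (of 5 listed) all fell under the signal filter and did not move alike. Il5ra was higher without overlap, at 6.63, 10.7 and 19.5 in +/b and 77.9, 102 and 24.7 in b/b rats. Ccr3 was lower without overlap, at 203, 70.5 and 82.1 against 36.8, 17.9 and 65.8. Epx and Prg2 overlapped. The 4 markers summed to 114 to 238 in +/b and 147 to 176 in b/b rats. The 5 macrophage markers summed to 723 to 1046 and 673 to 1031. Of the 3 tested erythroid markers, Hbb and Alas2 were higher in b/b rats, as given next, and Slc4a1 overlapped (-0.61). The part of any of these cell types in the Alox15 difference was not tested.

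Hbb encodes beta globin, the oxygen-carrying chain of adult haemoglobin. It was at 2757, 1708 and 2159 in +/b and at 11201, 9562 and 13456 in b/b rats. Every b/b array was far above the highest +/b array. The mean rose 5.17-fold, from 2208 ± 527 to 11406 ± 1955 (SD), with a log2 difference of 2.37 ± 0.26 SE (limma adjusted p = 0.00236; 2.7e-05 with the replicate block). Leaving out single arrays gave 2.20 to 2.55, with adjusted p-values of 0.00508 to 0.0299. The call was lost with the values as deposited, where 2 duodenum arrays were unscaled (2.37, adjusted p = 1.00), and with b/b replicate 1 as the only b/b jejunum array (2.36, adjusted p = 0.338). The probe set belongs to a type whose probes can also match related transcripts, so other beta globin genes may contribute to its signal.

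The start of the Hbb gene is shown because Hbb was called in each fit that left out 1 array. The 250 bases before the RefSeq start site (GRCr8, chr1:167663722-167663971, minus strand, upstream of the transcribed part) read 5′ to 3′ as follows. Capitals mark matches on either strand to the CACCC motif, to the CCAAT box and to the TATA-like CATAAA motif.
Hbb: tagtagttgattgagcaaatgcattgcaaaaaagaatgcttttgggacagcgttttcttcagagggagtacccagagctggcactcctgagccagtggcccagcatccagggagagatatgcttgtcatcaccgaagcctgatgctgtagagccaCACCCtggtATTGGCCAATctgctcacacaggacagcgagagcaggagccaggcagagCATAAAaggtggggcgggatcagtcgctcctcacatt
The CACCC match begins 95 bases before the start site, the adjoining pair of CCAAT matches at 86 (on the opposite strand) and 81, and the CATAAA match at 37. Promoter windows of the same length held CACCC in 49.2%, CCAAT in 34.0% and CATAAA in 11.4% of 33469 RefSeq entries, so none of these short matches is rare. The arrays measured transcript signal only, and nothing about these bases was assayed.

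Alas2, the erythroid form of the enzyme that starts heme synthesis, was at 129, 68.8 and 23.5 in +/b and at 430, 411 and 585 in b/b rats. The groups did not overlap, and the mean rose 6.45-fold (log2 difference 2.63 ± 0.41 SE, limma adjusted p = 0.0470). This call lay close to the threshold. It was lost with the replicate block (adjusted p = 0.0599) and on leaving out any single jejunum array other than +/b replicate 1 (adjusted p of 0.122 to 0.494), with differences between 2.13 and 3.07 over all 6. It was also lost without b/b duodenum replicate 1 (adjusted p = 0.0820), with a pseudocount of 1 (0.102), without the intensity trend (0.114), without the signal filter (0.0504), with the 6 jejunum arrays fitted alone (0.189) and with the values as deposited (0.789). The housekeeping form Alas1 was at 3855, 3314 and 2501 in +/b and at 4564, 3297 and 3265 in b/b rats, which overlapped (0.21 ± 0.24).

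The other 3 called probe sets, each annotated to several genes, moved alike. Probe set 1388608_x_at was at 2762, 1806 and 2369 in +/b and 10893, 9422 and 11747 in b/b rats (log2 difference 2.22 ± 0.28, limma adjusted p = 0.00782). Probe set 1371102_x_at was at 1174, 627 and 643 against 3241, 3717 and 5782 (2.38 ± 0.37, adjusted p = 0.0470). Probe set 1371245_a_at was at 88.04, 6.86 and 68.6 against 526, 573 and 1071 (3.58 ± 0.49, adjusted p = 0.0189). In each of them the lowest b/b array was above the highest +/b array. These calls too depended on single arrays. That of 1371102_x_at was lost on leaving out any jejunum array other than +/b replicate 1 (adjusted p of 0.137 to 0.494) and without b/b duodenum replicate 1 (0.0820). That of 1371245_a_at was lost without each b/b jejunum array (0.0715, 0.0985 and 0.211), and that of 1388608_x_at without +/b replicate 2 (0.0722), b/b replicate 1 (0.0703) or b/b replicate 3 (0.0779). All 3 were lost without the intensity trend (0.0660 to 0.282), with b/b replicate 1 as the only b/b jejunum array (0.342 to 0.609), and in part under other settings: 1371102_x_at with quantile normalization (0.0534), a pseudocount of 1 (0.0914) and the values as deposited (1.00), 1371245_a_at with a pseudocount of 1 (0.102) and the 6 arrays alone (0.0961), and 1388608_x_at as deposited (1.00).

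**Figure D2:**
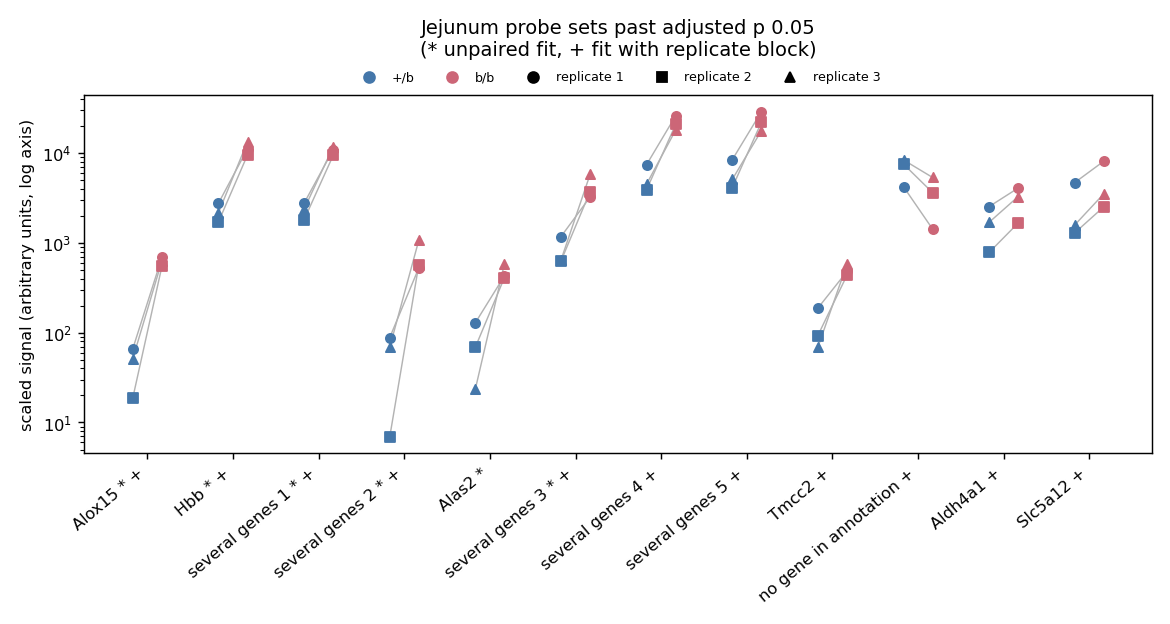
Scaled signal (log axis) on each jejunum array for the 12 probe sets past an adjusted p of 0.05 in the unpaired fit, in the fit with the replicate block, or in both; lines join arrays of the same replicate number. For Alox15, Hbb and Alas2 every b/b array lies above every +/b array, whereas for Slc5a12 and Aldh4a1 the groups overlap and each same-numbered pair runs upward.

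With the replicate number as a block, 11 probe sets were called (0.0622%), 10 higher (0.0565%) and 1 lower (0.00565%), and 1384 had an unadjusted p under 0.05 (7.82%). They were 5 of the 6 above, Alas2 being the exception, and 6 more. Slc5a12, a sodium-coupled lactate and monocarboxylate transporter of the brush border, was at 4699, 1294 and 1585 in +/b and at 8139, 2530 and 3532 in b/b rats. The groups overlapped because replicate 1 was high in both genotypes, but each b/b array exceeded its same-numbered +/b array. The log2 differences were 0.79, 0.96 and 1.15 by number, with a mean of 0.97 (limma adjusted p = 0.0197 with the block and 1.00 without). A second Slc5a12 probe set gave 0.72, 1.58 and 1.62 by number (adjusted p = 0.0599 with the block). Aldh4a1, a mitochondrial enzyme of proline breakdown, was at 2537, 783 and 1696 in +/b and at 4087, 1670 and 3285 in b/b rats (0.90, adjusted p = 0.0494 with the block and 1.00 without). Tmcc2, which encodes a membrane protein with coiled coils, was at 188, 93.0 and 68.9 against 481, 436 and 580 without overlap (2.05 ± 0.44, adjusted p = 0.0494 with the block and 0.725 without). With the block in all 12 arrays, an alternative chosen after seeing the data, Slc5a12 (adjusted p = 1.00), Aldh4a1 (1.00) and Tmcc2 (0.843) were not called, and with the block and quantile normalization, also added later, Aldh4a1 (0.0809) and Tmcc2 (0.0503) were not. A pair of further probe sets with several genes had differences of 2.07 and 2.00 on bright signals, up to 28860 in b/b rats. The only lower call was probe set 1389986_at, which has no gene in the annotation: it was at 4222, 7541 and 8388 in +/b and 1424, 3624 and 5352 in b/b rats (-1.09). The labels do not say what a replicate number marks across genotypes, and the block leaves 2 residual degrees of freedom.

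Beyond Hbb and Alas2, erythroid genes were mostly dim. Of 25 listed erythroid genes on the array, 11 passed the signal filter. Of these, 2 (Hbb and Alas2) were called, against 3 of all 10067 tested genes. The groups did not overlap on the higher side for 3 of the 11 (27.3%, against 3.15% of all tested genes): Hbb, Alas2 and Car2. The median of the 11 was 0.07, with 6 above and 5 below 0. The globin gene Hba-a3 was not on the list and was added after its values were seen. It was at 264, 204 and 233 in +/b and at 426, 559 and 694 in b/b rats without overlap (1.19 ± 0.40, not called). Car2, a carbonic anhydrase of red cells that epithelium also makes, was at 2920, 3102 and 2029 in +/b and at 3921, 3369 and 3274 in b/b rats without overlap (0.41 ± 0.21, not called). Slc4a1, the red cell anion exchanger, overlapped at 108, 166 and 118 against 30.2, 108 and 133 (-0.61). Among the 14 genes under the filter, Ahsp, Epb42, Klf1 and Kel had b/b signals above all +/b signals, as did 5.64% of all 4150 genes under the filter. For Epb42 the gap was slight, from 9.23 on the highest +/b array to 9.38 on the lowest b/b array. Ahsp, the chaperone of alpha globin, was at 8.52, 4.86 and 5.15 in +/b and at 21.0, 162 and 128 in b/b rats, and the other 3 stayed at or below 77.2. The 5 erythroid markers on the array (of 7 listed) summed to 1954 to 3012 in +/b and 10256 to 14312 in b/b rats, of which Hbb alone made up 1708 to 2757 and 9562 to 13456. In scrapes, more cells of a type and more RNA per cell cannot be told apart. How much blood each scrape held was not measured.

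None of the iron handling genes of the jejunal enterocyte was called. Slc11a2 itself was at 416, 618 and 1149 in +/b and at 1336, 474 and 3676 in b/b rats on its brighter probe set. Replicates 1 and 3 were higher in b/b and replicate 2 lower, so the log2 difference of 0.98 ± 0.55 was not called (limma adjusted p = 1.00). It rested on single arrays: dropping b/b replicate 3 gave 0.25, and dropping b/b replicate 2 gave 1.71. With number 2 left out of both genotypes under the block, it was 1.66 (limma adjusted p = 4.6e-09). That setting was chosen after seeing the data and left 1 residual degree of freedom. It removed the only pair of opposite sign and called 249 probe sets against 6 in the main fit. This p-value is therefore no test of Slc11a2. On the dimmer probe set the difference was 0.21 ± 0.38. Since the b allele is known to change an amino acid and still to be transcribed, this level does not check the genotype labels. Cybrd1, the duodenal ferric reductase, was low in the jejunum of both genotypes, at 228, 174 and 268 in +/b and 226, 325 and 251 in b/b rats (0.24 ± 0.41). Tfrc, the transferrin receptor through which cells take iron from the blood, was at 5038, 3550 and 5047 against 5232, 4393 and 6251. Its difference of 0.22 ± 0.25 had the same sign in all 3 numbered pairs, and its second probe set gave 0.35 ± 0.40.

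On the export side, ferroportin (Slc40a1) was at 788, 2034 and 2186 in +/b and at 1045, 889 and 2586 in b/b rats, which overlapped widely (-0.18 ± 0.46). Its other probe sets gave -0.13 and -0.28. Heph was at 10567, 11282 and 8943 against 11643, 10889 and 10324 (0.10 ± 0.19). The heme-degrading enzyme Hmox1 was at 206, 450 and 474 against 229, 427 and 545 (0.09 ± 0.53), the copper exporter Atp7a differed by -0.02 ± 0.46 on its brightest probe set, and the metallothionein Mt1 by 0.48 ± 0.81. Mt2A, another metal-binding metallothionein, was at 3375, 856 and 907 in +/b and 3041, 1846 and 4431 in b/b rats (1.07 ± 0.61, overlapping). The ferritin genes Fth1 and Ftl1 are named in the rule but had no probe set of their own.

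**Figure D3:**
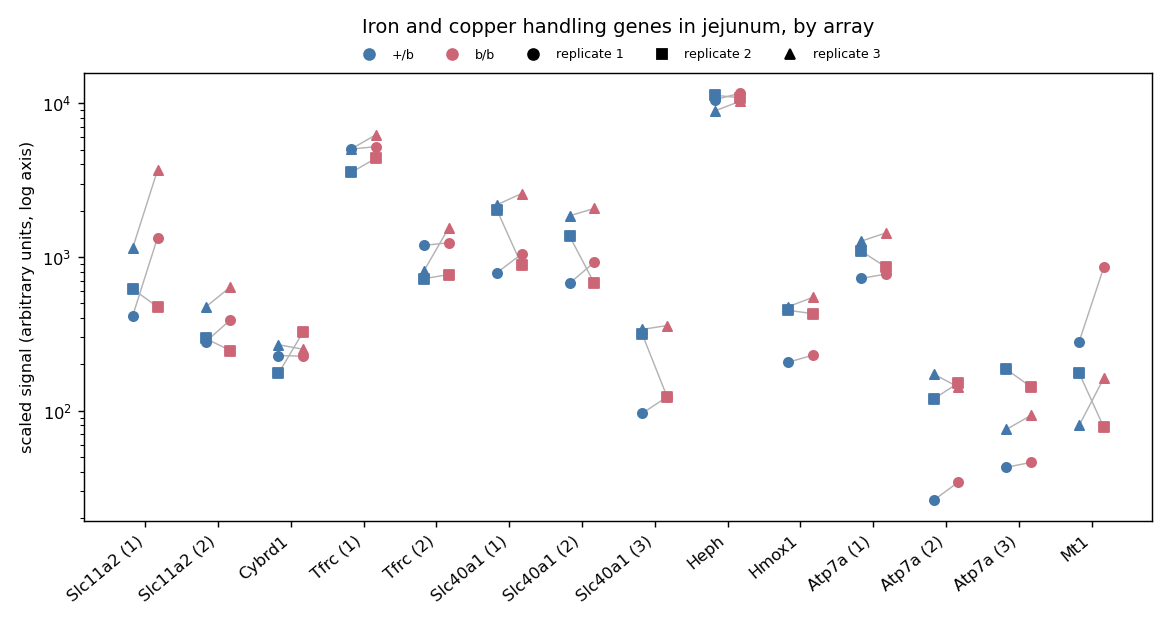
Scaled signal (log axis) on each jejunum array for genes of iron and copper handling, by probe set, with same-numbered arrays joined; numbers in brackets are probe sets of 1 gene from bright to dim. The groups overlap for each of them, and Slc11a2 is highest in b/b replicate 3 at 3676.

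By list, 0 of 10 tested iron uptake genes, 0 of 8 export and storage genes and 0 of 8 iron sensing genes were called. Their medians were 0.11, -0.05 and 0.06. Over all tested genes, the groups did not overlap for 3.15% on the higher side and 4.93% on the lower side. Among the sensing genes, the cytosolic iron-sulfur glutaredoxin Glrx3 was at 2536, 2544 and 2433 in +/b and at 1538, 2262 and 1660 in b/b rats without overlap (-0.48 ± 0.21, not called). Bmp6, the signal that raises hepcidin in liver, was dim and higher without overlap (0.38 ± 0.38). Of 14 genes of iron-sulfur cluster assembly and mitochondrial iron, 11 were below 0 with a median of -0.07, while 56.6% of all tested genes were below 0. The groups did not overlap for 1 of the 14 (7.14%), the mitochondrial chaperone Hspa9. It was at 3230, 2820 and 3315 against 1887, 2373 and 2537 (-0.47 ± 0.20, not called). Of 18 heme genes, Alas2 was the only call, against 3 calls among all 10067 tested genes. Abcb10, a mitochondrial transporter of heme synthesis, was lower without overlap at 1368, 1450 and 1300 against 1744, 1622 and 1698 in +/b rats (-0.30 ± 0.21).

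Hypoxia-inducible factors switch on genes of glycolysis, vessel growth and iron uptake when oxygen or iron is scarce. Of 36 tested factors, regulators and targets, 0 were called, 31 lay above 0 and the median was 0.16, whereas over all tested genes 56.6% were below 0 and the median was -0.04. In 6 of them (16.7%, against 3.15% of all tested genes) every b/b array was higher. Egln3, an oxygen-sensing hydroxylase that is itself a target, was at 1017, 1276 and 1199 in +/b and at 1404, 1522 and 2141 in b/b rats (0.51 ± 0.28). The vessel growth factor Vegfa was at 821, 930 and 1211 against 1295, 1211 and 1386 (0.41 ± 0.25). Its highest +/b and lowest b/b signals were equal at the digits printed, so its gap was slight. The others were the regulator Vhl (0.29), the carbonic anhydrase Car9 (0.21), the mitophagy receptor Bnip3l (0.16) and the hydroxylase Egln1 (0.15). The factors Hif1a (0.08 ± 0.25) and Epas1 (0.00 ± 0.37) overlapped. The list median was 0.10, 0.09 and 0.16 in the numbered pairs and stayed between 0.13 and 0.21 on leaving out single arrays. No member passed the test in either fit.

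Crypt genes lay on the lower side in b/b rats. The crypts hold the dividing stem and progenitor cells that renew the epithelium. All 13 tested crypt genes were below 0, with a median of -0.42, none was called, and for 5 of them (38.5%, against 4.93% of all tested genes) the groups did not overlap. The stem cell factor Ascl2 was at 185, 156 and 141 in +/b and at 94.1, 110 and 72.8 in b/b rats (-0.71 ± 0.42). The adhesion receptor Cd44 was at 467, 476 and 457 against 131, 419 and 381 (-0.72 ± 0.37), with b/b replicate 1 far below the rest. Myb, a progenitor transcription factor, was at 1251, 1278 and 1807 against 639, 1205 and 999 (-0.63 ± 0.45). Cdca7 (-0.55) and Prom1 (-0.33) were the other 2. The stem cell receptor Lgr5 overlapped (-0.42 ± 0.67).

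Of 43 tested genes of the cell cycle and DNA replication, 40 were below 0 with a median of -0.30, 0 were called, and 2 (4.65%, against 4.93% of all tested genes) did not overlap on the lower side: the mitotic kinase Aurka, at 381, 388 and 485 in +/b against 275, 304 and 333 in b/b rats (-0.44 ± 0.35), and the clamp loader subunit Rfc3 (-0.39 ± 0.77). The replication clamp Pcna (-0.40 ± 0.32) and the proliferation marker Mki67 (-0.36 ± 0.40) overlapped. These shifts were unequal among the pairs: the cell cycle median was -0.42, -0.01 and -0.46 in numbers 1, 2 and 3, and the crypt median -0.62, -0.03 and -0.63. On leaving out single arrays the medians ranged from -0.42 to -0.14 and from -0.61 to -0.32. Paneth cell genes, which encode antimicrobial proteins of the crypt base, had a median of -0.29 over 7 genes but opposite signs among the pairs (-0.58, 0.48 and -0.70), and a range of -0.62 to 0.03 on leaving out single arrays. The share of crypt tissue in each scrape was not measured and cannot be told apart from the level per cell.

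**Figure D4:**
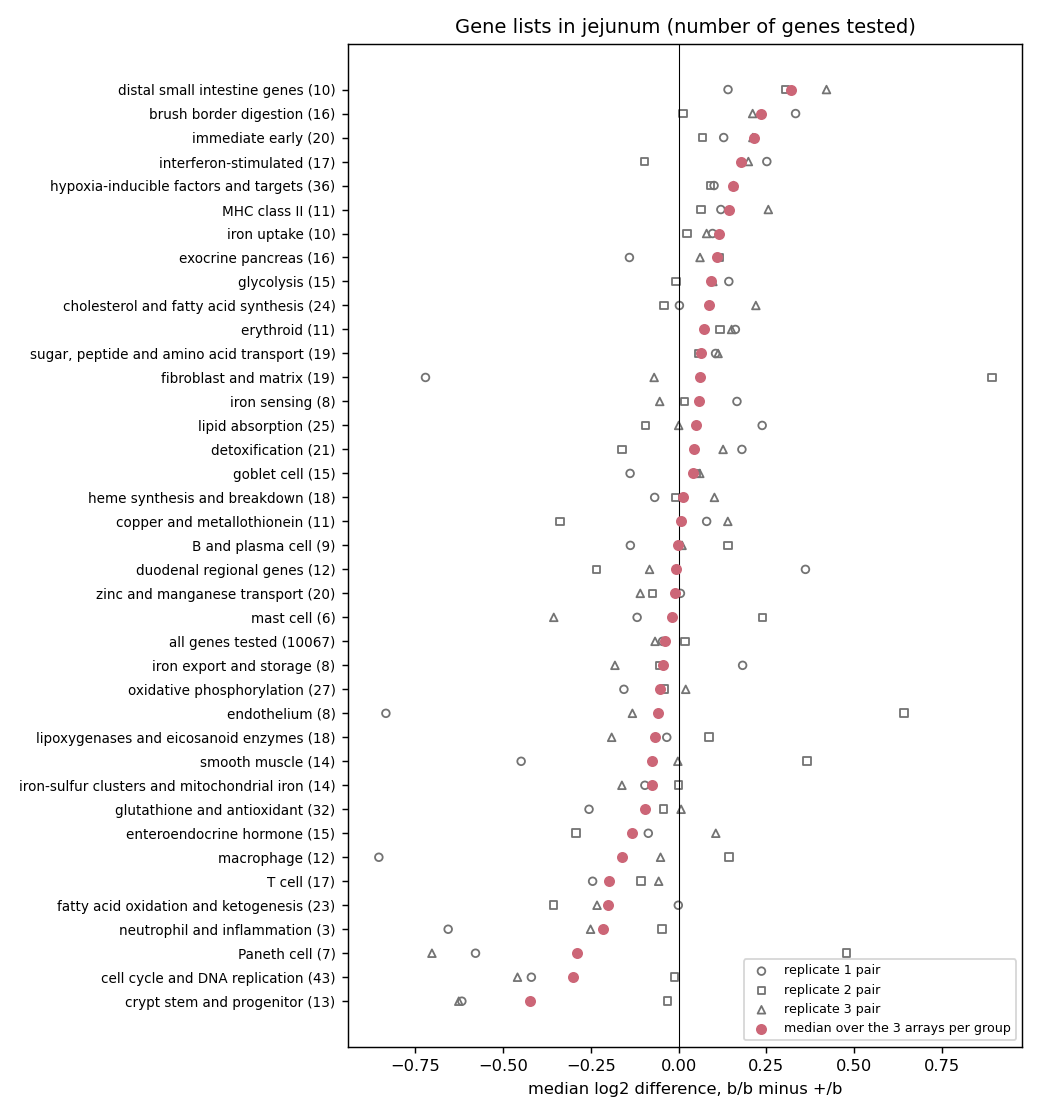
Median log2 difference (b/b minus +/b) of each gene list in jejunum, with the number of genes tested in brackets; filled points are medians over the 3 arrays per group and open symbols are medians within each numbered pair. Crypt and cell cycle genes lie lowest at -0.42 and -0.30, and fibroblast and endothelium genes spread most among the pairs, from -0.72 to 0.89 and from -0.83 to 0.64.

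Genes of the absorptive surface lay slightly on the other side. Of 16 tested brush border genes, 15 were above 0 with a median of 0.23, and 0 were called. Amnionless (Amn), which anchors the vitamin B12 receptor, was higher without overlap, at 6821, 5946 and 5492 in +/b and 8680, 7361 and 7257 in b/b rats (0.35 ± 0.19). On a dimmer Amn probe set the groups overlapped, at 2790, 1720 and 1076 against 5291, 2875 and 1641 (0.75 ± 0.52, not called). The partner of Amn, cubilin (Cubn), was at 8992, 5234 and 4755 against 12903, 6632 and 6856, overlapping, with each pair higher (0.46 ± 0.48). The alkaline phosphatase Alpi (0.14), the aminopeptidase Anpep (0.09) and villin (Vil1, 0.00) had differences close to 0. The direction of the list depended on the arrays used, with medians between -0.03 and 0.40 on leaving out single arrays. Phospholipase B (Plb1), an enzyme of lipid digestion, had the largest difference of the list at 1.72 ± 0.62: it was at 6584, 1052 and 823 in +/b and 3609, 9434 and 6149 in b/b rats, so +/b replicate 1 lay above b/b replicate 1. Fabp6, the ileal bile acid binding protein, was chosen after its values were seen: it was at 497, 375 and 243 in +/b and at 327, 5349 and 476 in b/b rats, with replicate 2 of b/b far above the other 5 arrays. Plb1 was also highest on that array. Both belong to the list of genes of the distal small intestine, which had a median of 0.32 over 10 genes (0.03 to 0.56 on leaving out single arrays) and 0 called.

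Lipid and nutrient uptake genes had medians close to that of all genes, but these medians moved with the arrays used. On leaving out single arrays they ranged from -0.12 to 0.26 for lipid absorption. For sugar, peptide and amino acid transport they ranged from -0.07 to 0.31. Over 25 lipid absorption genes the median was 0.05, and Apoa1 (0.01), Apob (0.04) and Fabp2 (-0.01) differed by far less than their SEs of 0.57, 0.39 and 0.51. Over 19 sugar, peptide and amino acid transporters the median was 0.06 with 0 called and 0 without overlap. The peptide transporter Slc15a1 was at 18032, 9738 and 10705 in +/b against 22547, 10822 and 12499 in b/b rats (0.23 ± 0.42). S100g, a calcium-binding protein of absorptive cells under vitamin D control, was lower without overlap, at 1210, 1816 and 1311 against 902, 1142 and 793 (-0.60 ± 0.30, not called). The mucin Muc2 and the trefoil factor Tff3 of goblet cells differed by 0.00 and 0.07.

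Genes of fatty acid oxidation, which burn fatty acids in mitochondria and peroxisomes, were mostly on the lower side: 20 of 23 tested lay below 0, as did 56.6% of all tested genes, with a median of -0.20 and 0 called. In 4 (17.4%, against 4.93% of all tested genes) the groups did not overlap on the lower side. The enoyl-CoA isomerase Eci1 was at 2866, 3660 and 3409 in +/b and at 2706, 1918 and 2004 in b/b rats (-0.59 ± 0.25), and the dienoyl-CoA reductase Decr1 at 6839, 6096 and 6701 against 5872, 3673 and 5230 (-0.43 ± 0.27). The electron transfer enzyme Etfdh (-0.42) and the acyl-CoA dehydrogenase Acadvl (-0.20) were the others, while the short-chain dehydrogenase Acads was higher without overlap (0.19 ± 0.21). The list median was 0.00, -0.36 and -0.23 in the numbered pairs and between -0.29 and -0.10 on leaving out single arrays. Among lipid synthesis genes, the elongase Elovl6 was at 1800, 1582 and 2177 against 1418, 697 and 1430 (-0.70 ± 0.26) and acetyl-CoA carboxylase Acaca at 438, 395 and 433 against 515, 568 and 573 (0.38 ± 0.21), neither called. Of 32 antioxidant genes, 2 (6.25%, against 4.93% of all tested genes) were lower without overlap. They were the glutathione transferase Gsta3 (-0.65 ± 0.26) and the superoxide dismutase Sod1 (-0.31 ± 0.17). Of 27 oxidative phosphorylation genes, 20 were below 0 but the median was only -0.05.

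**Figure D5:**
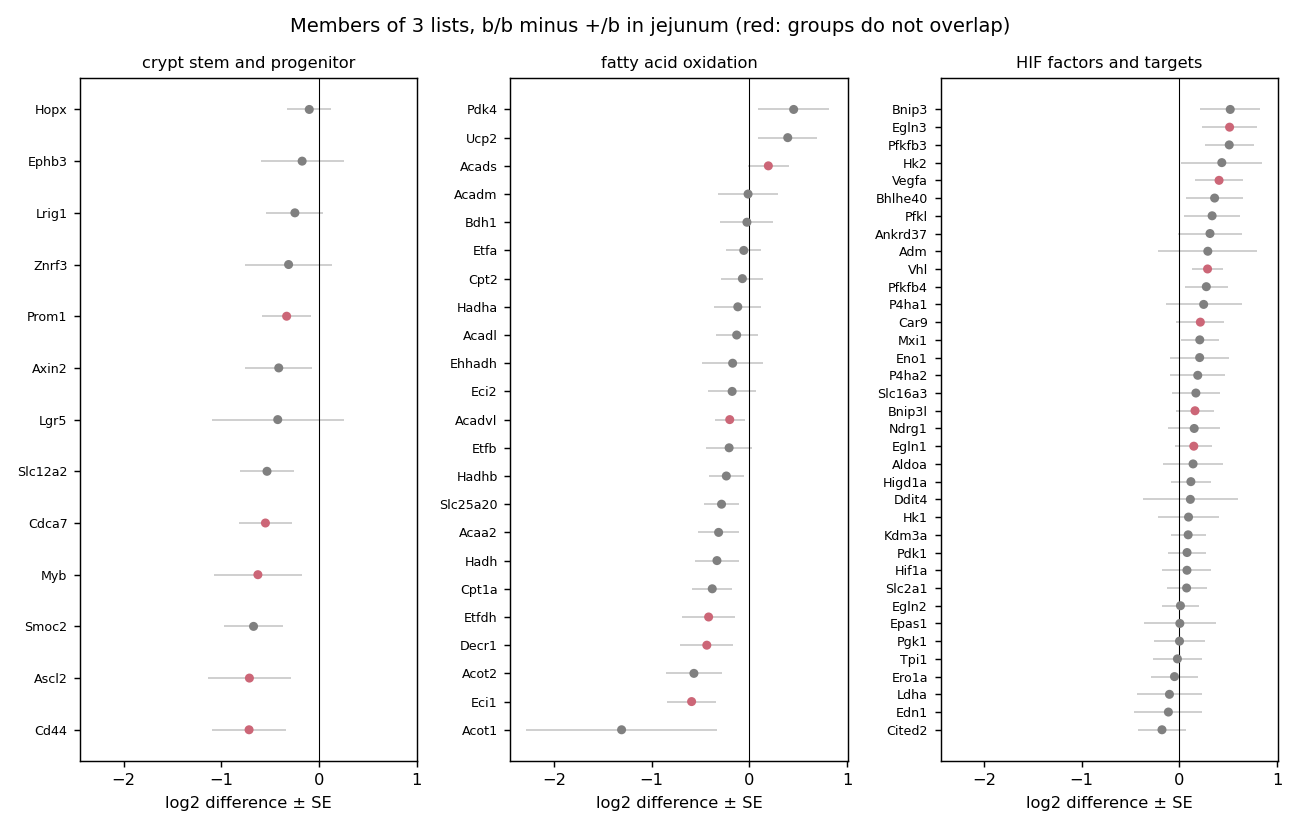
Log2 difference between b/b and +/b rats with its SE (n = 3 arrays per group) for each tested member of the crypt, fatty acid oxidation and hypoxia-inducible factor lists; red points mark genes whose groups of 3 arrays do not overlap. All 13 crypt genes and 20 of 23 fatty acid oxidation genes lie below 0, 31 of 36 hypoxia genes lie above it, and none passed the test.

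Immune and stromal genes gave no call. RT1-DMa, which loads peptides onto MHC class II, was at 2539, 2815 and 2020 in +/b and 3991, 3424 and 3468 in b/b rats without overlap (0.57 ± 0.19), in a list of 11 with a median of 0.14 that ranged from -0.07 to 0.37 on leaving out single arrays. T cell genes had a median of -0.20 over 17 genes (-0.23 to 0.01 on leaving out single arrays), and the leukocyte phosphatase Ptprc was lower without overlap (-0.34 ± 0.21). Of 20 immediate early genes, 16 were above 0 with a median of 0.22 (0.12 to 0.32 on leaving out single arrays). The mRNA decay factor Zfp36 was at 3017, 3813 and 3342 against 4744, 4555 and 4575 (0.45 ± 0.24) and the transcription factor Klf4 at 5640, 7464 and 6712 against 7632, 7669 and 8771 (0.29 ± 0.22). Fibroblast and endothelial genes varied widely among the b/b arrays: the receptor Pdgfra was at 473, 412 and 420 in +/b and at 177, 1097 and 295 in b/b rats, and the endothelial Plvap at 609, 380 and 304 against 119, 871 and 390. In b/b rats replicate 2 was high and replicate 1 low for both.

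Among genes with non-overlapping groups and an unadjusted p under 0.05 (62 higher and 72 lower), the largest values after Alox15, Alas2 and Hbb on the higher side were those of Nrap, a muscle protein (2.13), Tmcc2 (2.05), the volume-regulated anion channel subunit Lrrc8a (1.99), the acyl-CoA synthetase Acsm1 (1.89), Dok7 (1.54), the amino acid transporter Slc38a5 (1.47), the dehydrogenase Dhrs9 (1.40), Map6 (1.38) and the tubulin Tubb4a (1.33). Most were dim: Nrap was at 21.2, 37.1 and 24.8 in +/b and at 258, 124 and 162 in b/b rats. Dhrs9 gave more signal, at 697, 673 and 726 in b/b against 95.5, 457 and 362 in +/b rats. On the lower side were Klhl8 (-1.99), Rrp15 (-1.53), Atl1 (-1.48), Cxhxorf38 (-1.27), Mettl6 (-1.26), Kmt2a (-1.12), Gcnt2 (-1.10), Agpat3 (-1.10), Rbm28 (-1.09), Thoc2 (-1.06), Esrrg (-1.05) and Mms22l (-0.99). Klhl8, which encodes a kelch-repeat protein, was at 207, 152 and 245 against 27.5, 26.6 and 68.8. Gcnt2, a glycosyltransferase of the I blood group branch, was at 4630, 2824 and 4825 in +/b and 1633, 2400 and 1608 in b/b rats. None of these other than Alox15, Alas2 and Hbb was called in the unpaired fit, and Tmcc2 was called with the block.

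The difference between the genotype effects of the 2 segments was tested in the same fit. For 0 of 17694 probe sets did the jejunal effect differ from the duodenal effect at an adjusted p under 0.05 (306 at an unadjusted p under 0.05, 1.73%), and 2 were called with the group of rats as a block (0.0113%) and again without b/b duodenum replicate 1. Hbb differed by 2.37 in jejunum and 2.43 in duodenum (difference -0.05 ± 0.36), and Alox15 by 3.46 and 4.52 (-1.07 ± 0.51). Cybrd1, at 0.24 in jejunum and 4.05 in duodenum, had a difference of -3.80 ± 0.58 (limma adjusted p = 0.252; 0.0218 with the block; -4.43 and 4.9e-04 without b/b duodenum replicate 1).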

How the data were processed

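The deposited values were linear signal intensities, 1 per probe set and array. Per the submitters' processing notes, MAS5 was used for 10 arrays; the notes of b/b jejunum replicates 2 and 3 name no tool. The version of MAS5 is not given in the sources used. Every array was scaled to a 2% trimmed mean of 500. The jejunum arrays were already within 1 unit of it as deposited, whereas replicates 2 and 3 of the +/b duodenum were deposited unscaled, at 51.6 and 126.6. Of 31099 probe sets, 57 controls were removed, and the 17694 whose mean signal over the 12 arrays reached 100 entered the tests. Of all probe sets, 20832 had 1 gene in the platform annotation, 436 several and 9831 none; a gene with several probe sets was represented in lists by its brightest. No pair of jejunum arrays was identical. The number of arrays, 3 per group, limits the precision.

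Group means of log2(signal + 16), which understates changes of dim genes, were fitted over all 12 arrays with limma 3.58.1 (R 4.3.3; lmFit, eBayes with trend), leaving 8 residual degrees of freedom. P-values are two-sided and Benjamini-Hochberg adjusted, with a threshold of 0.05. The fit was tested on simulated data. Same-numbered jejunum arrays of +/b and b/b rats deviated together from their group means (correlations of 0.32, 0.12 and 0.42). The correlations for different numbers were -0.33 to -0.03. Deviations from a mean cancel within a group, so the negative average for different numbers follows from the positive values and is no separate evidence. The pairing comes from the signals: the labels do not say what a number marks, and the genotypes are different rats.

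The comparison and the 39 gene lists (831 genes, 703 on the array, 595 tested; 38 lists had at least 3 tested genes) were chosen with earlier results of these data known. Genes named were all called probe sets, 13 genes of iron, copper, heme and red cell biology and Alox15 whatever their result, the 12 largest non-overlapping values in each direction, and from each list described no more than 6 members, non-overlapping ones first and then the brightest. Other list members named (Lgr5, Fabp6, Hif1a, Epas1, Slc4a1, Ahsp and the like) were chosen after their values were seen.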

Additional observations from a re-analysis of the deposited data

Results flagged for a closer look

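Both results given here are differences between the genotype effects of the 2 segments, and both passed the test of the difference with the group of rats as a block and on leaving out b/b duodenum replicate 1, and not in the fit of all 12 arrays without the block. Cybrd1, the duodenal ferric reductase, had a jejunal minus duodenal difference of -3.80 on the log2 scale (limma adjusted p = 0.0218 with the block, 0.252 without; -4.43, adjusted p = 4.9e-04, without b/b duodenum replicate 1). Its jejunal signals were 228, 174 and 268 in +/b and 226, 325 and 251 in b/b rats. Probe set 1376344_at, which has no gene in the annotation, had a difference of -4.04 (limma adjusted p = 0.0223 with the block, 0.338 without; -4.75, adjusted p = 0.00104, without b/b duodenum replicate 1), with jejunal signals of 243, 352 and 411 in +/b and 233, 503 and 212 in b/b rats. In both, the jejunal groups overlapped.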

How the results depend on the processing

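Against 6 calls in jejunum, 3 were made with a pseudocount of 1, 2 with the values as deposited, 2 without the intensity trend, 11 with the replicate block, 14 with the block and median centring, and 0 with b/b replicate 1 as the only b/b jejunum array. Leaving out single arrays gave 2 to 6 calls; Alox15 and Hbb were called in each of these fits. Leaving number 1, 2 or 3 out of both genotypes with the block gave 51, 249 and 53 calls on 1 residual degree of freedom, the block in all 12 arrays 8 and the block with quantile normalization 9; these, like the block with median centring, were chosen after seeing the data. The other settings gave 4 to 8 calls. Hbb lost its call as deposited, and Alox15 and Hbb both lost theirs with b/b replicate 1 as the only b/b jejunum array. No setting moved the median of all probe sets beyond -0.03 to 0.01. The difference between segments gave 2 calls with the block by group of rats and the same 2 without b/b duodenum replicate 1, against 0. Some uncalled genes changed sign. On leaving out single arrays, Slc40a1 ranged from -0.65 to 0.11, -0.59 to 0.21 and -0.82 to 0.0093 on its 3 probe sets, Slc11a2 from -0.13 to 0.53 (dimmer probe set), Hmox1 from -0.28 to 0.43, Atp7a from -0.29 to 0.15, -0.54 to 0.67 and -0.41 to 0.48, Mt1 from -0.44 to 1.17, Pdgfra from -0.88 to 0.39 and Plvap from -0.88 to 0.48. With number 2 left out under the block, Cybrd1 was -0.053, Slc40a1 0.32, 0.30 and 0.20, and Atp7a 0.13, -0.0013 and 0.17. With number 1 left out Mt1 was -0.066, Pdgfra 0.45 and Plvap 0.75, and with number 3 left out Pdgfra was 0.017. With only b/b array 1, Hmox1 was -0.59, Atp7a -1.03 and Fabp6 -0.12. Array weights gave Mt1 -0.052, Pdgfra 0.29 and Plvap 0.22. Atp7a was 0.016 and 0.036 with median centring, with the block too, and 0.0094 with a pseudocount of 1. The causes were not tested.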

Other observations

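Genes of the exocrine pancreas, a tissue that neighbours the duodenum, were near the floor of the jejunum arrays. The 6 pancreatic markers summed to 172 to 348 in +/b and 181 to 362 in b/b rats. The 16 tested pancreas genes passed a filter on the mean of all 12 arrays, which include the duodenum. In 3 of them (18.8%) the b/b signals were above all +/b signals. That share was 3.15% of all tested genes and 5.64% of genes under the signal filter. The largest was the elastase Cela3b at 6.60, 15.3 and 4.76 in +/b and 145, 18.5 and 15.997 in b/b rats. At signals so near the floor, the count is not read as a genotype difference. Genes of zinc and manganese transport had a median of -0.01 over 20 genes. Of these, 2 (10%, against 4.93% of all tested genes) were lower without overlap. They were the zinc exporters Slc30a6 (-0.17 ± 0.18) and Slc30a5 (-0.14 ± 0.20), with differences smaller than their SEs. The zinc importer Slc39a4 was at 3734, 6606 and 9143 in +/b and at 3730, 5137 and 8262 in b/b rats, following the replicate number in both genotypes. Of 15 enteroendocrine genes, 0 were called; the incretin Gip was at 5524, 6314 and 4841 against 5106, 4517 and 4355 (-0.25 ± 0.22).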
